A study of Homo sapiens with 6 samples.

Results

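The baseline open chromatin of vehicle-treated HLF cells was described from 66380 genomic regions, 75.9% of the 87417 consensus regions for the DMSO group. A consensus region was kept when a called ATAC-seq peak overlapped it in each of the 3 DMSO libraries. Another 13313 consensus regions were overlapped in 2 libraries, 6660 in 1 and 1064 in none, and these were not ranked. Each kept region was ranked by its mean percentile, the mean over the 3 libraries of the percentile that its strongest peak held in that library for the −log10 p-value of the peak caller. A region at the 99th percentile was therefore a stronger peak than nearly all others of the same library. This value compares regions with each other and carries no comparison with a treatment.

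HLF is an established human cell line from a poorly differentiated hepatocellular carcinoma. The cells were grown in DMEM with 10% FBS and received DMSO, the vehicle control for the menin inhibitor SNDX-5613, and no inhibitor. The labels give a vehicle exposure of 24 h, and the text of the study gives a longer one for this assay, so the duration is uncertain. All 3 libraries carry the same batch label. The study describes a replicate as a single dish of cells that was divided between vehicle and inhibitor, and neither it nor the labels say whether the dishes were grown apart, so the spread may be technical.

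ATAC-seq uses a Tn5 transposase that inserts sequencing adapters where DNA is not wrapped in a nucleosome, so a peak marks a stretch of accessible DNA. Promoters of active genes are usually nucleosome-free and give the strongest peaks, while distal peaks often mark enhancers or sites of the insulator protein CTCF. In hepatocytes the accessible distal sites are typically those of HNF4A, FOXA and CEBP family factors, and in dedifferentiated, mesenchymal tumor cells they are often those of AP-1 and of the TEAD factors that act with YAP. NF-Y is a trimeric factor that recognises the CCAAT box close to the start of many cell cycle and metabolic genes, and the study addressed its relation to menin and the MLL1 histone methyltransferase.

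The sequences that carry the main contrasts were read from hg38, on the + strand, in the 200 bp centred on the middle of the 3 library summits, and capitals mark motif matches, in promoters those of NF-Y, SP, ETS, NRF1 and CREB and in distal regions those of AP-1, TEAD, CTCF and NF-Y. Both strands were searched. AP-1 was spelled TGACTCA, NF-Y as CCAAT followed by C or G and then by A or G, TEAD as CATTCC preceded by A or G and followed by A or T, and ETS as CCGGAAGT. CTCF was searched with its core consensus, by name. Of the 12 highest-ranked promoters of protein-coding genes, 8 held an NF-Y match, and 4 of them are shown as examples that were chosen after their values were seen. ZSWIM3 and ACOT8, which are transcribed away from each other, shared the region chr20:45857401-45857600. PXMP4, coding for a peroxisomal membrane protein, lay at chr20:33720315-33720514 and held 3 NF-Y matches. WDR19, coding for a ciliary transport subunit, lay at chr4:39182271-39182470. TOM1L2, coding for an endosomal sorting adaptor, shared chr17:17972472-17972671 with DRC3.
ZSWIM3 promoter: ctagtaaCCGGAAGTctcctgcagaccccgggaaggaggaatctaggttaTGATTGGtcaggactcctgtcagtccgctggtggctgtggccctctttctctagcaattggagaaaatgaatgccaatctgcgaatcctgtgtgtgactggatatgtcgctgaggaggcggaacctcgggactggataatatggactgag
PXMP4 promoter: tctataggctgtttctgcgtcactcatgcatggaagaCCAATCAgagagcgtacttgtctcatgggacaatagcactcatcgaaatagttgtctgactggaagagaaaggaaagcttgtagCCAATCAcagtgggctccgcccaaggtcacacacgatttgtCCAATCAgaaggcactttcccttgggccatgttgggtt
WDR19 promoter: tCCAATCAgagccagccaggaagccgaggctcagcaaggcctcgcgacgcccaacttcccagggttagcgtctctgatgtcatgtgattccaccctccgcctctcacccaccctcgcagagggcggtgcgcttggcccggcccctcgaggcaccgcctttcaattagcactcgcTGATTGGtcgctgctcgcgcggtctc
TOM1L2 promoter: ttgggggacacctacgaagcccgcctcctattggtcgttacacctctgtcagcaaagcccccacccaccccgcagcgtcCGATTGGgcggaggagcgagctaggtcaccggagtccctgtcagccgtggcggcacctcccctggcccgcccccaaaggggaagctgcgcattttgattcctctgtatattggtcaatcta

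The next sequences are shown because they are the highest-ranked distal regions away from small RNA genes and pseudogenes with a match to AP-1 and to AP-1 together with TEAD, followed by the highest distal region near TGFBI and near CCN2, which code for secreted matrix proteins. The AP-1 region lay in an intron of PKD1L1 at chr7:47786701-47786900, ranked 626 and also held an NF-Y match. The AP-1 and TEAD region was intergenic at chr18:8891025-8891224 and ranked 667. The TGFBI region, at chr5:136053696-136053895, was intronic. The CCN2 region, at chr6:131954809-131955008, lay in an intron of the long noncoding RNA gene LINC01013, and its TEAD and AP-1 matches overlap by their shared T.
Distal AP-1 region: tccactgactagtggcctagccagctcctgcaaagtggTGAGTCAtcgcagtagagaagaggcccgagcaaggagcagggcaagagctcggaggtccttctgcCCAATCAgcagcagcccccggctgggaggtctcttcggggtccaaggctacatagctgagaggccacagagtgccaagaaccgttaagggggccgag
Distal AP-1 and TEAD region: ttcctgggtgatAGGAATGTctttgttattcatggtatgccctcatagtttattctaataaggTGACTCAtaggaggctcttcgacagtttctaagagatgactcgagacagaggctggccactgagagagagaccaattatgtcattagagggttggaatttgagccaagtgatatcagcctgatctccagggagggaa
TGFBI distal region: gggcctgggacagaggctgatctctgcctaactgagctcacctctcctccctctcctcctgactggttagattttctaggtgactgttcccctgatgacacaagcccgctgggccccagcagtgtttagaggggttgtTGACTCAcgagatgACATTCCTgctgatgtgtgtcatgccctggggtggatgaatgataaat
CCN2 distal region: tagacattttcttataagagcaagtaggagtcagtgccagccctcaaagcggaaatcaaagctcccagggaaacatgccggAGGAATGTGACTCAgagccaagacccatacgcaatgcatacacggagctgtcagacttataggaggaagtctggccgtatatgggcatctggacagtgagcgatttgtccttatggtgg

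For contrast, the RefSeq promoter window of ALB (GRCh38.p14, chr4:73404037-73404336) is printed because no DMSO library had a peak there. ALB codes for serum albumin, the most abundant product of hepatocytes. The window holds an NF-Y match, in capitals, so these letters were also present at a promoter without a peak. Of 35116 such RefSeq windows of 300 bp, 16.6% held an NF-Y match, 4.95% an AP-1 match and 4.15% a TEAD match. A match is a description of letters and not evidence that a factor was bound.
ALB promoter: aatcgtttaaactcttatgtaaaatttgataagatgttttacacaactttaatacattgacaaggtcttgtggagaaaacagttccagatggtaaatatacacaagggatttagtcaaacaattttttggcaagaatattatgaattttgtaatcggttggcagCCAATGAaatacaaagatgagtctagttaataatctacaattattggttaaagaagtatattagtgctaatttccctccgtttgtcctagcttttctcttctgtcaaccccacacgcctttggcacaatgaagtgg

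The 3 libraries gave 88026, 113675 and 96392 merged peak regions for DMSO replicates 1, 2 and 3. Read totals were not given in these lists, and the depth was read from the summit pileup, the number of fragments or extended reads over a summit. Its median was 23, 22 and 25, its lowest called value was 6, 6 and 7, and the genome-wide background solved from the lists was 0.997, 1.31 and 1.45 per position. The lists can therefore show a region only from those pileups upward, and a region without a peak was below detection at this depth and is not shown to be closed. The rankings were close, with Spearman correlations across the 66380 regions of 0.937, 0.930 and 0.944 between pairs of libraries, which are given as a description because regions are not independent replicates. The SD of a region's percentile over the libraries had a median of 5.26 points, of 0.925 in the top decile and of 10.1 in the bottom decile. The top decile was chosen by these same percentiles, which have an upper limit, so a small SD there follows in part from the scale. It therefore does not show how well positions near the top were separated from the others. Near the bottom the SD was large, and the exact order there was not fixed. Members of the bottom decile reached up to a mean percentile of 31.4 and those of the top decile started at 93.1.

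Promoters filled the top of the ranking. A promoter was a region with its centre within 1 kb of an annotated transcript start, and 17630 regions (26.6%) were promoters while 48750 were distal. Promoters made up 89.9% of the top decile, 54.9% of the next decile and 25.9% of the one after that, and 12.7% of the bottom decile. When the libraries were ranked one at a time the share in the top decile was 89.2% ± 0.733 (SD, n = 3) and that in the bottom decile was 12.9% ± 0.293. Introns held 51.2% and intergenic sequence 30.8% of the bottom decile. Of the 663 regions in the highest 1%, 633 were promoters, 19 were intergenic, 9 were intronic and 2 were exonic. This order depends on how strength is scored. Ranking by the fold over the local background, the other deposited measure of peak strength, gave 51.4% promoters in the top decile and 21.7% in the bottom decile. The share in the bottom decile was 20.7% with a promoter distance of 3 kb and 8.27% when only the 5′ end of each gene was used.

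**Figure D1:**
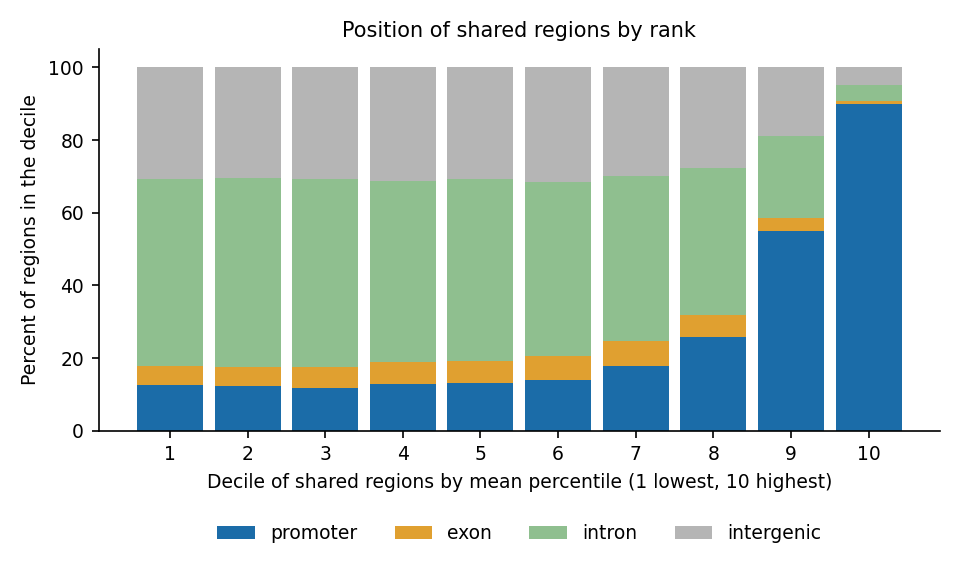
Percentage of shared regions that are promoters, exons, introns or intergenic in each decile of the ranking, from 1 (lowest) to 10 (highest). Promoters reach 89.9% in the highest decile and 12.7% in the lowest.

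Promoters were also larger in signal and width. The median summit pileup at promoters was 96, 127 and 122 in the 3 libraries, against 25, 33 and 31 at distal regions, so that in each library the promoter median lay above the distal medians of all 3. Divided by each library's background, the medians were 92.6 ± 7.23 (SD, n = 3) for promoters and 23.9 ± 2.17 for distal regions. The median width was 794 bp for promoters and 401 bp for distal regions, and the 66380 regions together covered 36.8 Mb.

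Within promoters, strength went with the arrangement of the genes. In the top decile of promoters, 17.2% ± 0.143 (SD over 3 library rankings) had protein-coding starts on both strands within 1 kb, against 6.13% in the fifth decile, 1.70% in the bottom decile and 8.19% of all promoters. These are bidirectional promoters such as that of ZSWIM3 and ACOT8. A protein-coding start lay within 1 kb of the centre in 94.9% of the top decile and 69.7% of the bottom decile. The top decile had a median of 66.5% G and C and 19 CpG dinucleotides in 200 bp, against 60% and 7 in the bottom decile, and a median width of 900 bp against 420 bp. Its region centres lay a median of 68 bp from the nearest protein-coding start, while those of the bottom decile lay 500 bp away. The base composition, width and motif content therefore moved together, and the part of each was not tested.

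The CCAAT box of NF-Y was the motif with the largest change in percentage points across promoters among the 16 motifs searched. As a ratio of top to bottom decile the order differed, with 4.50 for NF-Y, 17.9 for ETS, 7.48 for NRF1 and 5.63 for CREB. The NF-Y match was present in 44.1% of the top decile of promoters, in 9.81% of the bottom decile and in 19.6% of all promoters. Over the single-library rankings the top-decile share was 43.1% ± 1.62 (SD, n = 3) and the bottom-decile share 9.68% ± 0.229. Promoters with a match had a median summit of 145 ± 11.2 times background, and those without one 80.3 ± 6.15 times. The match was found in 52 of the 100 highest promoters and in 479 of the 1000 highest. With the fold over local background as the score the top-decile share was 26.3%, still above its 7.43% in the bottom decile.

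Other promoter motifs had their own courses. The ETS motif, of the factor family that includes GABPA, rose from 0.624% in the bottom decile to 11.2% in the top decile. NRF1, a regulator of nuclear-coded mitochondrial genes, went from 1.19% to 8.91% but was most common in the seventh and eighth deciles, at 13.1% and 12.9%. The GC box of SP factors (GGGGCGGGG) went from 9.70% to 23.4% and stood at 26.6% and 27.1% in the sixth and seventh deciles. The CREB motif (TGACGTCA) went from 0.908% to 5.10%. AP-1 ran the other way, from 10.9% in the bottom decile to 0.908% in the top decile, as did TEAD, from 4.37% to 0.908%. The SD over library rankings was at most 1.62 percentage points in the top decile for all of these.

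**Figure D2:**
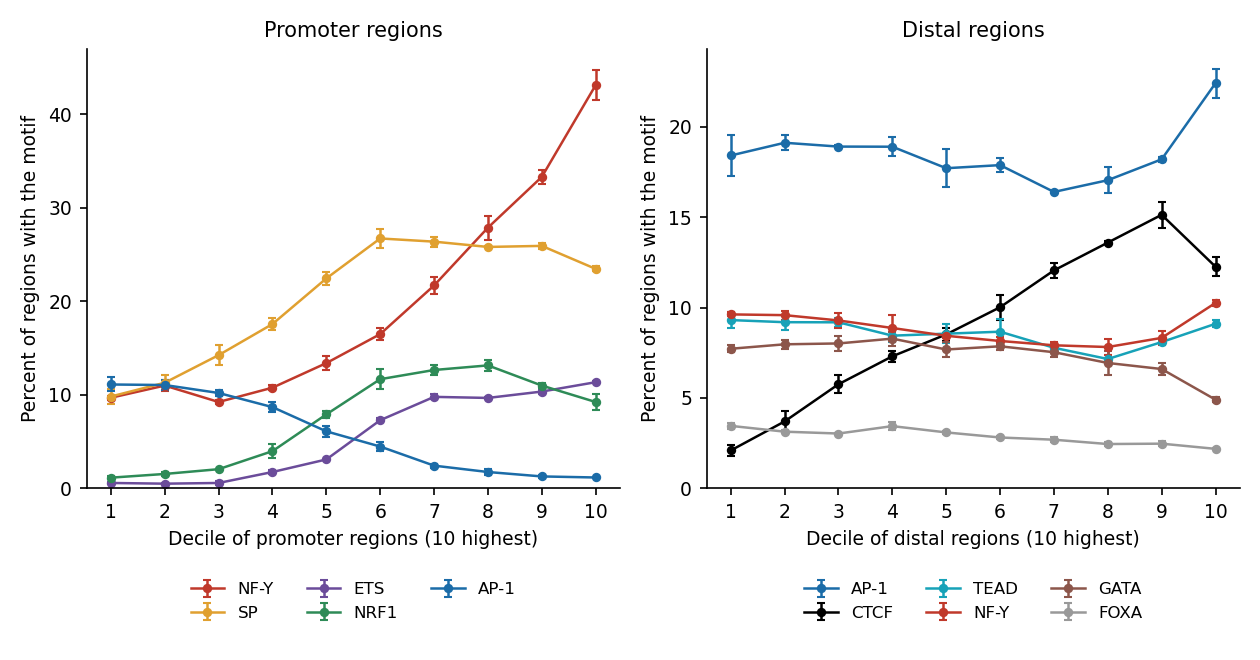
Percentage of promoter regions (left) and distal regions (right) with each motif within 100 bp of the summit, by decile of the promoter or distal ranking. Points are means over the rankings of the 3 DMSO libraries and bars are SD. NF-Y climbs to 43.1% in the top decile of promoters, and CTCF is least common in the bottom decile of distal regions.

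The 12 highest-ranked promoters of protein-coding genes were led by ZNF286A, a zinc finger gene on chromosome 17. Its summit pileups were 521, 766 and 731, or 538 ± 43.1 times background (SD, n = 3). ZSWIM3 reached 342, 435 and 445, and PXMP4 reached 325, 427 and 396. Replicate 1 was the lowest of the 3 libraries at all of them, as it was in background. WDR19 had 339, 488 and 424, and TOM1L2 had 375, 532 and 513. CHMP4B, coding for a membrane-remodelling ESCRT subunit, had 348, 444 and 440 at rank 13. The others included GTF2IRD2B, FAM86B1, FAM86B2, the promoter of RBM27 with an unnamed coding gene, and ISOC2. GTF2IRD2B, FAM86B1 and FAM86B2 lie in recently duplicated sequence, where reads can be shared between near-identical copies, so their ranks are uncertain.

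At the other end, the 8 lowest-ranked promoter regions lay within 1 kb of starts of HTR3A, H2AC11, SLCO5A1, HGFAC, ADAM23, ALK, ACSL5 and IL4I1. These are ranks of regions and not of genes, and the strongest region of a gene may be another one. The regions of H2AC11, HGFAC and ALK were centred 941, 807 and 636 bp from the nearest protein-coding start. HTR3A codes for a serotonin-gated channel, ALK for a receptor kinase of the developing nervous system, and HGFAC for the hepatocyte-secreted activator of hepatocyte growth factor. The ALK promoter had summit pileups of 8, 8 and 9, IL4I1 had 9, 14 and 11, and HTR3A had 7, 6 and 9, all near the lowest value that was called. H2AC11, a histone gene, and HGFAC were exceptions, with pileups of 32, 42 and 53 and of 17, 21 and 19, but mean folds of 1.89 and 2.54 over the local background. ACSL5 had a percentile of 6.20 ± 9.98 and IL4I1 one of 6.10 ± 9.59, so their order is not fixed.

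Among 19663 protein-coding genes, 13359 (67.9%) had a shared promoter region. A shared promoter region in the top decile was held by 6547 (33.3%), and 4824 (24.5%) had no peak within 1 kb of any start in any library. These shares are the background for every gene list that follows. The median percentile of the genes with a shared promoter was 93.0, where a gene with several starts took its strongest region. When only the canonical start of each gene was used, 12606 genes (64.1%) remained. Of 18794 long noncoding RNA genes, 5526 (29.4%) had a shared promoter region.

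**Figure D3:**
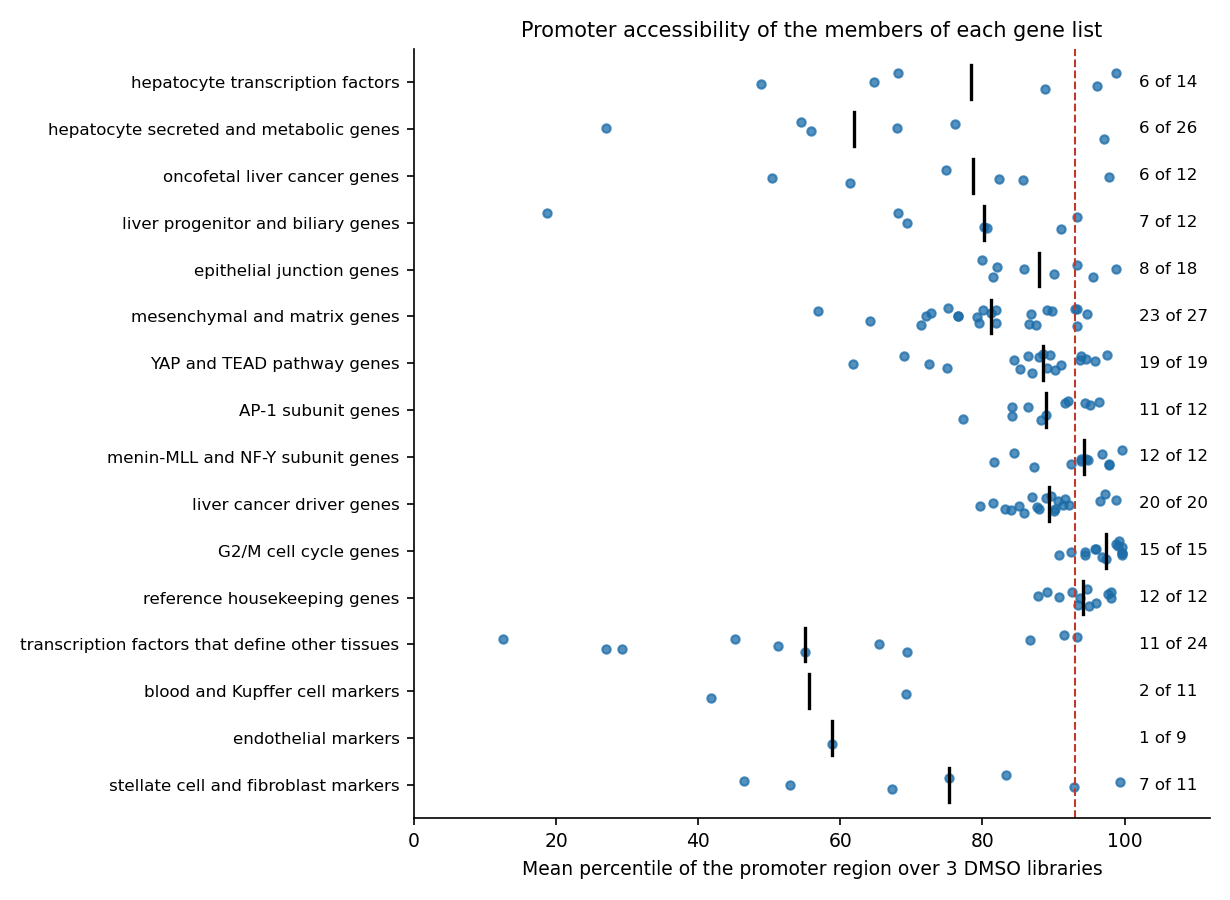
Mean percentile of the promoter region of each member of the gene lists, one point per gene with a shared promoter region, with the number of such genes of all listed at the right. Black bars are list medians and the dashed line is the median of all protein-coding genes with one (93.0). Hepatocyte, blood and endothelial lists hold small shares of members with a region, and the G2/M, housekeeping and menin-MLL and NF-Y lists lie highest.

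Hepatocyte transcription factors, which hold the identity of the liver parenchyma, mostly lacked a strong promoter. Of 14 genes, 6 (42.9%) had a shared promoter region, 2 were in the top decile, and 5 had no peak in any library, among them HNF4A, NR1H4, NR5A2 and NR1I2. HNF4A codes for a central regulator of hepatocyte identity, and NR1H4 is the bile acid receptor FXR. FOXA3 was the highest, with pileups of 206, 348 and 292 at a percentile of 98.7 ± 1.01, although that region lay 1286 bp from its canonical start. ONECUT2, the other one in the top decile, had 153, 197 and 175 at a percentile of 96.1 ± 1.03. Its region lay 168 bp from its canonical start. CEBPA had 90, 141 and 117, and FOXA1 had 33, 44 and 39. PROX1 had 19, 32 and 25, close to the middle of the ranking at 48.8 ± 11.6. The members with a peak thus ran from the middle of the ranking to its top, and the defining factor HNF4A was below detection.

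The products of hepatocytes were lower again. Of 26 genes for secreted and metabolic proteins, 6 (23.1%) had a shared promoter region, 1 was in the top decile and 17 had no peak in any library. These included ALB, APOA1, APOA2, APOC3, APOH, TF, FGA, FGB, HP, AHSG, TAT, G6PC1, PCK1, CYP3A4, CYP7A1 and ARG1, which cover plasma proteins, apolipoproteins, glucose production, drug and bile acid metabolism and the urea cycle. At the canonical start only APOB and HPD had a region. APOB, coding for the structural protein of very low density lipoprotein, had 15, 27 and 29, and HPD, coding for a tyrosine-degrading enzyme, had 35, 48 and 45. The regions credited to CYP2E1 and TTR lay 7002 and 35641 bp from their canonical starts. CPS1 had a peak within 1 kb of a start in all 3 libraries, FGG in 2 and SERPINA1 in 1, but none of them had a shared region. The label of the cells as a liver tumor line was therefore not matched by a shared promoter region at most of these genes. A promoter without a peak was below detection and is not shown to be closed.

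Fetal and biliary liver genes were mixed. Of 12 oncofetal genes, which are silent in adult liver and return in liver cancer, 6 had a shared promoter region, and AFP, GPC3 and DLK1 had no peak in any library. IGF2BP3, an RNA-binding protein, had 156, 209 and 225, or 157 ± 2.46 times background. IGF2BP1 of the same family had 101, 143 and 146. LIN28B reached a percentile of 97.8, but at a region 20120 bp from its canonical start. Of 12 progenitor and biliary genes, 7 had a shared region, while the biliary keratins KRT7 and KRT19 had no peak in any library. SOX9, a factor of bile duct and progenitor cells, had 102, 153 and 124, and SPP1 had 55, 77 and 68.

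Epithelial and mesenchymal genes differed in how many members were open. Of 18 epithelial junction genes, 8 (44.4%) had a shared promoter region, and ESRP1, GRHL2, OVOL1, CRB3 and MARVELD2 had no peak in any library. CDH1, coding for E-cadherin, had a peak within 1 kb of a start in all 3 libraries but no shared consensus region there, so it was not ranked. KRT8, a keratin of simple epithelia including hepatocytes, was the exception near the top at its canonical start, with 198, 271 and 264. ESRP2, a splicing factor of epithelial cells, had 231, 313 and 311, at a region 1541 bp from its canonical start. OCLN, of the tight junction, had 110, 151 and 186.

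Of 27 mesenchymal and matrix genes, 23 (85.2%) had a shared promoter region, 3 were in the top decile and none lacked a peak in every library. COL1A1, coding for a chain of fibrillar collagen, had 163, 208 and 209, and COL5A1 reached a percentile of 93.4 ± 1.58. SNAI1, a repressor of CDH1, had 148, 189 and 174. VIM, the mesenchymal intermediate filament, had 151, 228 and 214, and FN1, coding for fibronectin, had 85, 94 and 116. The related repressors ranked lower, with TWIST1 at 81.2 ± 1.27, ZEB1 at 79.3 ± 3.25, SNAI2 at 72.1 ± 3.80 and ZEB2 at 71.3 ± 0.993. Although more of its genes were open, the list had a median percentile of 81.2, below the 93.0 of all protein-coding genes with a shared promoter and below the 88.0 of the 8 epithelial genes that had one. TWIST2, PRRX1, COL3A1 and THY1 had no shared region.

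The Hippo pathway effectors were open throughout. All 19 YAP and TEAD pathway genes had a shared promoter region at their canonical start, 5 of them (26.3%) in the top decile, with a median percentile of 88.5. Both values were below those of protein-coding genes, of which 33.3% were in the top decile, with a median of 93.0 where a promoter was shared. YAP1, the co-activator, had 106, 139 and 146, and its paralog WWTR1, coding for TAZ, had 149, 182 and 196. TEAD1, a DNA-binding partner, had 191, 267 and 274, the highest of its family, whereas TEAD2 had 63, 93 and 87 and the lowest percentile of the list at 61.8 ± 7.96. The kinase genes LATS1 and LATS2, which restrain YAP, ranked at 93.7 ± 2.68 and 94.5 ± 1.28. The target genes CCN1, CCN2 and ANKRD1 had 161, 260 and 254, then 131, 186 and 184, then 84, 119 and 112. Targets and regulators therefore lay in overlapping ranges.

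Of 12 AP-1 subunit genes and relatives, 11 (91.7%) had a shared promoter region and 3 were in the top decile. JUN had 252, 388 and 313, ATF3 had 192, 284 and 272, and FOSL2 had 222, 306 and 285. FOSL1, coding for the FRA1 subunit, had 174, 303 and 267, and BATF, known from lymphocytes, had no peak in any library. The position of this list depended on the score, since its median percentile was 88.9 by −log10 p and 55.8 by fold over local background. Such a dependence was not particular to this list. Over all lists, 165 genes had a shared promoter region, and by fold 118 of them ranked lower by at least 1 SD over the libraries. Another 12 ranked higher by at least 1 SD and 35 stayed within it, and the median change was -11.3 points.

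The genes of the complex that the study addresses were open throughout. All 12 menin-MLL and NF-Y subunit genes had a shared promoter region at their canonical start and 8 were in the top decile, with a median percentile of 94.2, beside 93.0 for all protein-coding genes with one. MEN1, coding for menin, had 240, 301 and 295, at a percentile of 99.6 ± 0.191. KMT2A, coding for MLL1, ranked at 92.5 ± 2.50 and its paralog KMT2B at 94.8 ± 2.41. The shared subunit gene RBBP5 reached 97.9 ± 0.944. The 3 NF-Y subunit genes NFYA, NFYB and NFYC ranked at percentiles of 94.6, 97.7 and 96.9. HCFC1 was the lowest of the list at 81.6 ± 3.68.

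Cell division genes stood highest of the 16 lists. All 15 G2/M genes had a shared promoter region, 13 of them in the top decile, and the median percentile was 97.4. CCNB1, coding for the mitotic cyclin B1, had 218, 330 and 335, and TOP2A, coding for a topoisomerase of dividing cells, had 237, 322 and 309. AURKA, a spindle kinase, had 250, 421 and 389, and CDC25C ranked at 99.7 ± 0.273. CENPE was the lowest at 90.8 ± 1.70. By comparison, 12 housekeeping genes all had one, 8 in the top decile, with GAPDH at 199, 276 and 289 and a median percentile of 94.2.

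Liver cancer driver genes, which are recurrently mutated or amplified in this tumor, were open throughout. All 20 had a shared promoter region and 3 (15%) were in the top decile, among them TSC2 at 98.9 ± 0.575 and CCNE1 at 97.3 ± 1.26. The list had a median percentile of 89.3, below the 93.0 of all protein-coding genes with a shared promoter. TERT, coding for the telomerase subunit, had 65, 54 and 71 and was the lowest of the list at 79.6 ± 3.57. The region credited to CDKN2A lay 20173 bp from its canonical start.

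**Figure D4:**
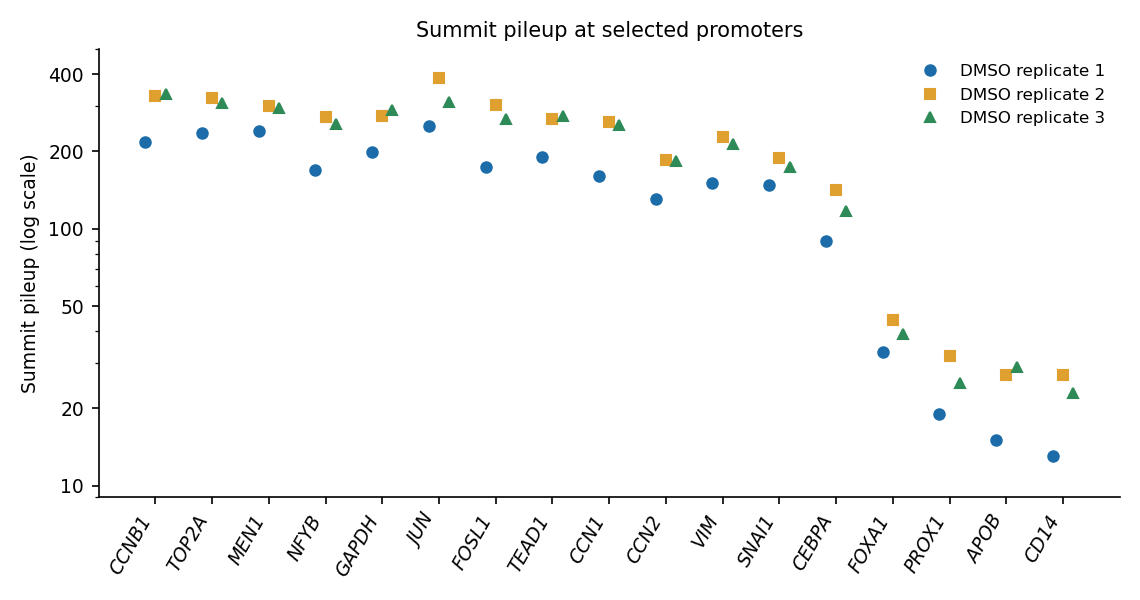
Summit pileup (log axis) at the promoters of 17 genes, one point per DMSO library. CCNB1, TOP2A and MEN1 lie above 200 in all 3 libraries, while FOXA1, PROX1, APOB and CD14 lie at 44 or below.

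Blood and endothelial markers were mostly below detection, while those of stellate cells, fibroblasts and other tissues were mixed. Of 11 blood and Kupffer cell markers, 9 had no peak in any library, PTPRC among them, and CD68 and CD14 had the other two regions, at percentiles of 69.3 ± 4.87 and 41.9 ± 16.7. Of 9 endothelial markers, 7 had no peak, PECAM1 and VWF among them, and KDR had 23, 22 and 29. Of 11 stellate cell and fibroblast markers, 7 had a shared region. PDGFRB, a pericyte and stellate cell receptor, had 122, 157 and 177, whereas DES and DPT had no peak in any library. RGS5, a pericyte gene, reached 99.3 ± 0.239 only at a region 119040 bp from its canonical start, where it had 66.6. ACTA2 ranked at 75.3 ± 2.19, but at 55.8 at its canonical start. Of 24 factors that define other tissues, 11 had a shared promoter region and 1, TCF7, was in the top decile. NKX2-5, a heart factor, had 100, 147 and 154, and NEUROG2, a neuronal factor, had 8, 8 and 10.

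Gene families with general functions were open nearly throughout. All 40 proteasome subunit genes had a shared promoter region, 32 in the top decile. The counts were 83 of 88 for cytosolic ribosomal protein genes, 83 of 89 for nuclear-coded respiratory chain subunits and 51 of 56 for translation initiation factors. Genes named ZNF, of the zinc finger repressor family, had 465 of 512, with 300 in the top decile. Families used in single tissues lay at the other end, with 9 of 391 olfactory receptor genes, 15 of 152 keratin and keratin-associated genes and 18 of 55 cytochrome P450 genes. Of 39 homeobox cluster genes, which pattern the body axis, 20 had a shared promoter region and 2 were in the top decile. However, 35 of the 39 lay within 50 kb of a top-decile distal region, beside 5752 of all 19663 protein-coding genes (29.3%). HOX genes lie in compact clusters, and those 35 genes had only 6 different regions between them, so they are not separate observations.

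The first 5 distal regions in rank overlapped small RNA genes or pseudogenes. The highest, rank 2, overlapped SNORD3B-1, coding for the U3 small nucleolar RNA, and had pileups of 475, 662 and 684. Rank 3 overlapped SNORD3A, of the same family, with 321, 501 and 467. Ranks 4 and 6 overlapped the FRG1DP and FRG1EP pseudogenes on chromosome 20, and rank 14 overlapped the U1 gene RNU1-2 in an intron of CROCC, with 284, 467 and 526. Of the next 7, those at ranks 36 and 57 overlapped pseudogenes, and those at ranks 33, 55, 67, 86 and 97 overlapped neither kind. The small RNA genes have their own promoters, which were not among the starts used to define a promoter. They are also present in near-identical copies, so their pileups may hold reads from several copies.

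The 8 lowest-ranked distal regions were near HBZ, POLR3K, MEF2C, HNRNPA2B1, SSH1, F3, SLC12A7 and RPIA as the nearest protein-coding genes. The lowest of all 66380 lay in an intron of HBZ, an embryonic globin gene, with pileups of 6, 6 and 7, the smallest that each library called. The region nearest to MEF2C, a muscle and neuronal factor, had 6, 6 and 8 and lay 447203 bp from its start. An intronic region of SSH1 had 27, 33 and 37 and was low in rank with a mean fold of 1.99 over the local background. Across the top decile of distal regions the median width was 586 bp and the median G and C content 55.5%, against 349 bp and 50.5% in the bottom decile. The median distance to the nearest protein-coding start was 21066 bp in the top decile and 32475 bp in the bottom decile.

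Transfer RNA genes made up a visible share of the strong distal regions. Of 443 transfer RNA genes, 328 (74.0%) had a shared region, with a median percentile of 88.3. Of the 4875 distal regions in the top decile of distal regions, 123 (2.52%) overlapped one, against 197 of all 48750 (0.404%) and 3 in the bottom decile. Chromosome 6 from 25 to 30 Mb, the main histone and transfer RNA gene cluster, held 220 distal regions, of which 95 overlapped a transfer RNA gene. Their median summit was 58.9 times background, compared with 23.8 times for all distal regions. The genes nearest to most top-decile distal regions were in this cluster. They had 13 of 20 distal regions for SCAND3, 12 of 16 for H2BC13, 12 of 24 for ZNF184 and 10 of 21 for TRIM27. Beyond it came NFATC2 with 9 of 35, OR11H1 with 8 of 22 and DEFB115 with 7 of 36. FAT1 had 7 of 38, KCNMA1 7 of 46 and NAV1 7 of 25. Over all distal regions, 4875 of 48750 were in that decile, and a gene near many distal regions reaches a high count more easily. The nearest gene was not always near. The median distance was about 3762070 bp for OR11H1 and 1378950 bp for DEFB115, against 20759 bp for KCNMA1 and 20633 bp for NAV1.

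Of the motifs searched in distal regions, CTCF had the largest change in percentage points between the ends of the ranking. As a ratio of top to bottom decile it had 8.99, below the 9.86 of NRF1. CTCF was present in 12.3% of the top decile of distal regions, 1.37% of the bottom decile and 9.04% of all. Its share was higher still in the ninth decile, at 15.4%, and in the eighth, at 13.7%. By fold over local background its top-decile share was 17.5% and its bottom-decile share 2.40%, and it was 6.70% among the distal regions within the top decile of all regions. AP-1 matches were in 18.5% of all distal regions. They were present in 22.5% of the top decile and 18.6% of the bottom decile, or 22.4% ± 0.806 and 18.4% ± 1.15 (SD over 3 library rankings). This difference reversed when regions were ranked by fold over local background, where AP-1 was 4.47 percentage points less common in the top decile, at 14.2%. No order of AP-1 by strength could therefore be read. TEAD matches were present in 9.23% of the top decile and 9.27% of the bottom decile.

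Matches to motifs of hepatocyte factors were also counted in distal regions. An HNF4 match (CAAAGTCCA) was found in 133 of 48750 distal regions (0.273%), of which 9 were in the top decile and 17 in the bottom decile. FOXA matches (TGTTTAC) were in 2.297% of the top decile and 3.51% of the bottom decile, and GATA matches (AGATAA) in 4.90% and 7.51%. CEBP matches (TTGCGCAA or TTGCACAA) were in 23 regions of the top decile (0.472%) and 20 of the bottom decile (0.410%). Over single-library rankings the CEBP shares were 0.458% ± 0.0829 and 0.540% ± 0.0474 (SD, n = 3), so no order was read. An HNF1 match was found in 5 of 48750 distal regions, with 0 in the top and 0 in the bottom decile. AP-1 and TEAD matches together were found in 886 of all 48750 distal regions (1.82%), 149 of the top decile (3.06%) and 84 of the bottom decile (1.72%). This combination was not counted in the ranking by fold over local background, where the AP-1 difference reversed, so no order was read from it. Motif lengths differ, so these shares order deciles within a motif but not motifs against each other.

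The strongest distal region within 50 kb of a gene was compared across the lists. A strongest value rises with the number of regions to choose from, which had a median of 7 for AP-1 subunit genes, 5 for YAP and TEAD pathway genes and 2 for all protein-coding genes, and its part in the values was not tested. Over all protein-coding genes 83.5% had a distal region that near, with a median of 46.6 times background for the strongest one. A top-decile distal region was that near for 5752 of all 19663 (29.3%). For AP-1 subunit genes the median was 90.6 times, and 8 of 12 had a top-decile distal region. For YAP and TEAD pathway genes it was 72.9 times, with 10 of 19, and for hepatocyte transcription factors 39.0 times, with 3 of 14. Core and linker histone genes had the highest median of these lists, 98.0 times, from 29 different regions for 75 genes. Menin-MLL and NF-Y subunit genes had 67.1, housekeeping genes 65.3, oncofetal genes 60.1, epithelial genes 58.5 and mesenchymal genes 55.7 times. The region near CCN2 printed above had pileups of 128, 170 and 168, or 125 ± 7.69 times background, 3547 bp from the CCN2 start. That near TGFBI had 133, 184 and 187 at 4313 bp. The region near FOSL1, with an AP-1 match, had 252, 308 and 267. Distance does not show which gene a distal region acts on.

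Hepatocyte loci were not devoid of open distal chromatin. An intronic region 12509 bp from the nearest HNF4A start had 66, 88 and 80, with an NF-Y match, although no HNF4A start had a peak. The strongest distal region near both ALB and AFP was the same intronic region, with 28, 48 and 46 and a GATA match. APOH had an intergenic region with 137, 192 and 168, holding an AP-1 and a GATA match. The 26 hepatocyte genes for secreted and metabolic proteins had a top-decile distal region in 6 cases (23.1%), beside 29.3% of all protein-coding genes.

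The highest 1% of regions was unevenly spread over the chromosomes. Chromosome 20 held 83 of the 663 regions (12.5%) but 3.35% of all shared regions. Chromosome 1 held 107 (16.1%) beside 10.3% of all shared regions, and chromosome 17 held 76 (11.5%) beside 5.30%. Of those 76, 31 lay between 15 and 22 Mb, a block with 4.68% of the 663 and 0.551% of all shared regions. None came from chromosomes 3, 13, 15 or X. HLF is an aneuploid tumor line, and DNA copy number was not measured here, so more copies of a segment and more accessible DNA cannot be told apart. Ranked within each chromosome, promoters made up 89.8% of the top decile, close to the 89.9% of the ranking across chromosomes.

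**Figure D5:**
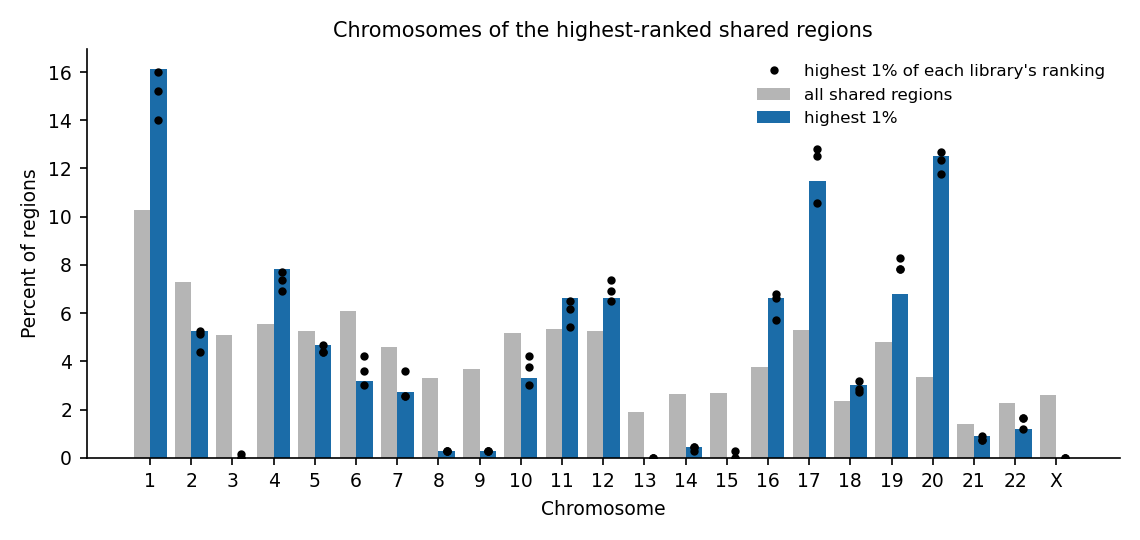
Percent of all shared regions (grey bars) and of the highest-ranked 1% (blue bars) on each chromosome, with points for the highest 1% of each DMSO library's own ranking. Chromosome 20 holds 3.35% of shared regions and 12.5% of the highest 1%, and chromosomes 3, 13, 15 and X hold none of the highest 1%.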

How the data were processed

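ATAC-seq (Omni-ATAC) was performed by the authors on HLF cells, and the 3 DMSO peak lists and the DMSO consensus set were used. Per the methods and the submitters' processing notes, reads were trimmed with Trim Galore 0.6.7, aligned to hg38 with Bowtie2 2.3.4.1, and duplicates were marked with Picard 2.20.0. SAMtools and deepTools 3.5.4 were also named. The authors called peaks per library with MACS2 (version not given in the sources used here) and derived the consensus with RMSPC. Whether Tn5 cut positions were shifted, duplicates removed, blacklisted sequence filtered or multiply mapped reads kept was not stated, and each could change pileups in repeated sequence.

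The deposited columns were the fold over the local background (a ratio), the −log10 p-value and the −log10 q-value of each summit. Pileups were solved from the deposited fold and p-value, and 100% came out whole within 0.01. The combined −log10 p-value of the consensus set and the counts that the authors made for differential testing were not used.

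Summits of one called region were joined, percentiles of the highest −log10 p were taken over the regions of each library, and consensus regions on chromosomes 1 to 22, X and Y overlapped by at least 1 bp in all 3 libraries were kept. A region centred within 1 kb of a GENCODE 44 start (protein-coding and long noncoding RNA genes) was a promoter. Genes took their strongest such region. Besides list members, named regions were the 12 highest and 8 lowest promoters of protein-coding genes, the 12 highest and 8 lowest distal regions, and the 10 genes nearest to most top-decile distal regions. Motifs were searched within 100 bp of the summit. The members, lists and motifs were chosen with earlier results of these data known. Some items are not reported here. No test between groups was made. Values are means with SD over 3 libraries.

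Python 3.11.15, NumPy 2.4.6, pandas 2.3.3, SciPy 1.17.1, pysam 0.24.0, matplotlib 3.10.9 and SAMtools 1.23.1 were used, and the steps were tested on simulated data. Alternatives tried were a stricter q-value, a peak covering 50% of the region, own merged regions, 2 of 3 libraries, ranking by fold, other percentiles, promoter distance, start choice, motif window and leaving out each library. Canonical starts, ranking within chromosomes and motif deciles over all shared regions were added after seeing the data.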

Additional observations from a re-analysis of the deposited data

Results flagged for a closer look

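Some signal lay outside the ranked regions. DMSO replicates 1, 2 and 3 had 622, 808 and 715 summits on unplaced contigs and the mitochondrial genome, of which 76, 69 and 61 were on the mitochondrial genome. These sequences were not ranked. There were also 16, 16 and 15 peak regions of the highest 1% of each library that no consensus region covered. By −log10 p the highest of these in each library stood above any ranked region. It was at the U2 small nuclear RNA gene that overlaps CCDC200 on chromosome 17, with pileups of 1073, 1632 and 1515. In replicate 1 the next ones by −log10 p were at the mitochondrial pseudogenes MTATP6P1 and MTND2P28 on chromosome 1. Their pileups of 1304 and 1207 were larger than that at U2. Values are given as found, and their source was not tested.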

How the results depend on the processing

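No paired analysis was possible because no groups were compared and no test was run. The number of shared regions ran from 45159 to 79693 over the alternatives and that of protein-coding genes with a shared promoter from 11916 to 14367. The promoter share of shared regions (26.6%) was 32.8% with a peak covering 50% of the region, 23.8% with 2 of 3 libraries, 34.4% at 3 kb, 20.8% with 5′ ends and 22.1% with canonical starts, and 24.997% to 26.3% without each library in turn. In the top decile (89.9%) it was, in the same order, 92.6%, 87.1%, 91.2%, 80.6% and 86.7%, with 51.4% by fold and 88.3% to 89.5% without each library. In the bottom decile (12.7%) it was 11.2% at 50% cover, 20.7% at 3 kb, 8.27% with 5′ ends, 8.53% with canonical starts, 21.7% by fold, 13.1% with own merged regions and 13.0% within chromosomes.

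Distal AP-1 in the top decile (22.5%) was 14.2% by fold, 26.9% within 250 bp and 25.3% over deciles of all regions. In the bottom decile (18.6%) it was 24.2% within 250 bp and 17.007% to 17.2% without each library. Its difference was 3.92 percentage points, and -4.47 by fold. CTCF in the top decile (12.3%) was 17.5% by fold and 6.70% over deciles of all regions, and in the bottom decile (1.37%) 2.40% by fold and 1.89% by the lowest percentile. Promoter NF-Y in the top decile (44.1%) was 26.3% by fold, 48.8% within 250 bp, 33.5% over deciles of all regions and 42.5% to 44.4% without each library, and in the bottom decile (9.81%) 7.43%, 16.4%, 8.78% and 8.90% to 9.66%. Of 252 recomputed median percentiles of the gene lists and families, 98 moved by at least 1 SD over the 3 libraries. The cause of these shifts was not tested. Read depth limits all statements on regions without a peak.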
